A study of Mus musculus with 65 samples.

Results

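The genes described here are 30 genes of the oligodendrocyte lineage, the cells that make myelin in the brain. They were taken by name from the RNA table of a mouse cerebellum study, and all 30 were found among its 15469 genes. By role they comprise 12 genes of myelin proteins, 6 of enzymes and an iron carrier, 6 of transcription factors, 2 of surface proteins of precursor cells, 3 of newly formed oligodendrocytes, and Mbnl1, a splicing regulator that many cell types use. The study set conditional knockouts (cKO) of the transcription factor genes Mef2a, Mef2d or both against Controls, in 3 lines named MEF2A, MEF2D and MEF2AD. RNA came from the cerebellum of C57BL/6 mice at postnatal day 22, with 4 libraries labelled cKO and 4 labelled Control in each line, all labelled female. H3K27ac, a histone acetylation found at active regulatory DNA, was read by ChIP-seq in 3 cKO and 3 Control libraries of each line, at sites that MEF2A or MEF2D occupies. The sources used here do not give the Cre driver, and so the cells in which the genes were deleted, nor the alleles of the Controls, any pooling of animals, or the age for H3K27ac. Titles of the RNA samples carry the word Rotarod while the sheet is named baseline, and whether the mice were trained is not stated.

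Oligodendrocytes arise from precursor cells that carry the receptor PDGFRA and the proteoglycan NG2, pass through a newly formed stage, and then wrap axons with myelin, a stack of membrane rich in galactolipids and in a few abundant proteins. The transcription factors OLIG1, OLIG2 and SOX10 mark the lineage, and MYRF, which SOX10 induces, switches on the myelin genes. MEF2 proteins bind an A/T-rich motif and are best known in muscle and neurons, and in the cerebellum the granule neurons, the most numerous cells, express both MEF2A and MEF2D. Oligodendrocytes sit mostly in the white matter, which continues into the brainstem.

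The stretches upstream of a few start sites are shown because they belong to the genes on which the results turn: Mbnl1 and Gal3st1 passed the test in a knockout, Mag, Cnp and Mog held the letters of MYRF and were among the genes that followed the common level of the set most closely, and Enpp6 held the only match to the MEF2 letters. RefSeq promoters (GRCm38.p6) were found for 21 of the 30 genes, as 30 windows, and the 250 bases before each start site were searched on both strands. Capitals mark matches to the MEF2 letters (CTA, any 4 bases, TAG), to the SOX letters ACAATG or ACAAAG, or to the MYRF letters CTGGCAC or CTGGTAC, or to their reverse complements, and no matches overlap in the windows shown.
Mbnl1 (chr3:60500929-60501178, plus strand): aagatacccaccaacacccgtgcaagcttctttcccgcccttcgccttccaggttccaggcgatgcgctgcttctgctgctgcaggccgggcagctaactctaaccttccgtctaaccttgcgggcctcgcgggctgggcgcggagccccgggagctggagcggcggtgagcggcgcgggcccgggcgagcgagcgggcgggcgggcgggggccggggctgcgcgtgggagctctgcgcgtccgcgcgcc
Gal3st1 (chr11:3983386-3983635, plus strand): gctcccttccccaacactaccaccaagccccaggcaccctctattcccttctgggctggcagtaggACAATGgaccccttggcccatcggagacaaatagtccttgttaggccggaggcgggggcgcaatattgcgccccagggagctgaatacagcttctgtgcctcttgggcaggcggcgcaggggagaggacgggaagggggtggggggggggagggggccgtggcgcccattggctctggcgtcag
Mag (chr7:30914864-30915113, minus strand): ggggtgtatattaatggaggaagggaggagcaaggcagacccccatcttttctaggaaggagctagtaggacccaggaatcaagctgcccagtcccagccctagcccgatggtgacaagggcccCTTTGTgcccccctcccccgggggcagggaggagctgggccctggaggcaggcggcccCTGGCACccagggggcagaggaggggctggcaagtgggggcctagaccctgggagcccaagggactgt
Cnp (chr11:100574689-100574938, plus strand): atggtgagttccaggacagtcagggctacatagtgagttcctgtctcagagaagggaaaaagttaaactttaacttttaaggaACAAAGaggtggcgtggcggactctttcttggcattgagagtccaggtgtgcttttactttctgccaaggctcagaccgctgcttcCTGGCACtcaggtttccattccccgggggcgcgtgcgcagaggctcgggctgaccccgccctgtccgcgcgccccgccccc
Mog (chr17:37023399-37023648, minus strand): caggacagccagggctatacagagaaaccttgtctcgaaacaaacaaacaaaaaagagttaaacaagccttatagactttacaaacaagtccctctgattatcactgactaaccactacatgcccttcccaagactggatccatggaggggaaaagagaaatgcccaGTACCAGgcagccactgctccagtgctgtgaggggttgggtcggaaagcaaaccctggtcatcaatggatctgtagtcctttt
Enpp6 (chr8:46986637-46986886, plus strand): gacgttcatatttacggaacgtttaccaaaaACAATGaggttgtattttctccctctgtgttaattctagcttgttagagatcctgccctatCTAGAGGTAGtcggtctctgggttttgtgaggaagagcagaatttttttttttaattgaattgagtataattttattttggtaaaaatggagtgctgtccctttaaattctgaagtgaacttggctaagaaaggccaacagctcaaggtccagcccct
The SOX letters lay in 13 of the 30 windows (43.3%), against 25.2% of all 32817 promoter windows of the same length. The MYRF letters lay in 4 windows (13.3%), of Cnp, Mag and Mog, against 5.92% of all windows, and 2 windows of Mag overlap and share their matches, as do 2 windows of Gal3st1 with the SOX letters. By gene, 10 of 21 held the SOX letters, 3 the MYRF letters and 1 the MEF2 letters. The MEF2 letters lay in 1 window, of Enpp6 (3.33%), against 3.2% of all windows. The middle bases of that match are GAGG, so it fits the looser letters searched and not an A/T-rich motif. The Enpp6 window lies inside the span that RefSeq gives the gene (46939197 to 47096762). In both windows of Mbnl1 none of the 3 sets of letters was found. A match is a description of letters and not of binding.

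The RNA libraries held 9178139 to 23160475 reads in genes. The lowest count of any member in any library was 74 reads, for Nkx6-2, so no member was near the limit of counting. Mef2a stood at 76.9 to 97.8 CPM (reads of the gene per 1000000 reads of the library) in MEF2A cKO against 207 to 232 in its Control, and at 88.4 to 99.2 in MEF2AD cKO against 182 to 193. Mef2d was not lower in the libraries labelled knockout of it: it stood at 360 to 387 CPM in MEF2D cKO against 306 to 357 in Control, and at 361 to 388 in MEF2AD cKO against 276 to 316. These counts sum over the whole gene and check nothing about a deleted exon, so the names MEF2D cKO and MEF2AD cKO below mean libraries labelled so. Choroid plexus markers ranged from 29.4 to 1850 CPM summed over 10 genes. Their median log2 fold was 0.86 in MEF2A cKO (9 of 10 higher), 0.35 in MEF2D cKO (10 of 10 higher) and -0.58 in MEF2AD cKO (10 of 10 lower), with 0 called, and their part in the results was not tested. MEF2AD Control 1 and MEF2AD cKO 4 stood apart. Of 10 listed markers of brainstem neurons 4 were measured (Hoxb5, Slc6a5, Chat and Slc17a6). They summed to 169 and 159 CPM, against 51.7 to 102 in the other 22 libraries. In the MEF2A and MEF2D lines Slc6a5 (33.4 to 55 CPM) and Slc17a6 (11.2 to 26.6) made up this sum. Hoxb5 did not pass 0.104 CPM there and Chat did not pass 0.0744, so the sum is not a measure of brainstem tissue alone. In MEF2AD Control 1 and MEF2AD cKO 4 the 10 granule neuron markers summed to 6013 and 5965 CPM, against 6870 to 8260. Microglia markers summed to 143 and 142 CPM there, against 109 to 133. Purkinje cell markers lay below the other 22 libraries in MEF2AD cKO 4 alone (5210 against 5980 to 7720 CPM). Astrocyte markers did so in MEF2AD Control 1 alone (5470 against 5520 to 6500 CPM). MEF2D Control 4 had the lowest summed level of the 30 genes (7603 CPM) and was below its group mean in all 30. Its brainstem sum was the lowest of its group (51.7 CPM, against 65.9 to 72 in MEF2D Control 1 to 3). Its sum of microglia markers was so too (116 CPM, against 128 to 131). In MEF2D Control Hoxb5 did not pass 0.0836 CPM and Chat did not pass 0.0744, so the brainstem sum differed there by Slc6a5 and Slc17a6. In MEF2A Control 1 the brainstem sum was 52 CPM and the 30 genes summed to 9873 CPM. The part of these markers in the level of the 30 genes was not tested.

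The genes of myelin proteins were all well measured, and each is given here by its lowest and highest level over the 24 libraries, in CPM, which is not corrected for gene length, so that levels compare between libraries and not between genes. Mbp, a main protein of compact myelin, ranged from 3753 to 6708 CPM. Mobp, another compact myelin protein, ranged from 971 to 1695, and Cnp, a protein of the cytoplasmic channels in myelin, from 550 to 803. For Mbp and Mobp the lowest library was MEF2D Control 4. Mag, an adhesion protein of the innermost wrap, ranged from 263 to 475, Mog, of the outer surface, from 107 to 183, and Mal, a proteolipid, from 251 to 403. Cldn11, which forms the tight junctions of myelin, ranged from 286 to 481, and Tspan2, a tetraspanin, from 200 to 329. Gjb1, a connexin, ranged from 24.8 to 46.2, Pllp, plasmolipin, from 46.8 to 85.2, Ermn, a cytoskeletal protein, from 53.6 to 90.9, and Opalin, a membrane glycoprotein, from 9.86 to 22.4. For 10 of these 12 genes the highest library was MEF2AD Control 1, and the exceptions were Ermn, highest in MEF2A cKO 4, and Tspan2, highest in MEF2AD cKO 4.

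Among the enzymes, Ugt8a makes the galactolipid galactosylceramide, Gal3st1 adds the sulfate that turns it into sulfatide, and Fa2h hydroxylates its fatty acid. Ugt8a ranged from 154 to 278 CPM, Fa2h from 82.7 to 139, and Gal3st1 from 14.5 to 32.4. Aspa, which splits N-acetylaspartate, ranged from 13.7 to 25, Car2, a carbonic anhydrase, from 101 to 173, and Trf, the iron carrier transferrin, from 27.1 to 45.6. Of the transcription factors, Olig1 ranged from 71 to 158, Olig2 from 15 to 39.4, Sox10 from 44.2 to 70.6, Sox8 from 38.5 to 58.4, Myrf from 66.9 to 115, and Nkx6-2, a homeobox factor of maturing oligodendrocytes, from 6.37 to 18. Of the precursor genes, Pdgfra, the receptor, ranged from 26.2 to 39.4 and Cspg4, which encodes NG2, from 18.1 to 27.4. Of the genes of newly formed cells, Gpr17, a receptor, ranged from 58.2 to 130, Enpp6, a choline phosphodiesterase, from 20.7 to 34.7, and Bcas1 from 107 to 174. Mbnl1 ranged from 99.1 to 161 CPM.

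**Figure D1:**
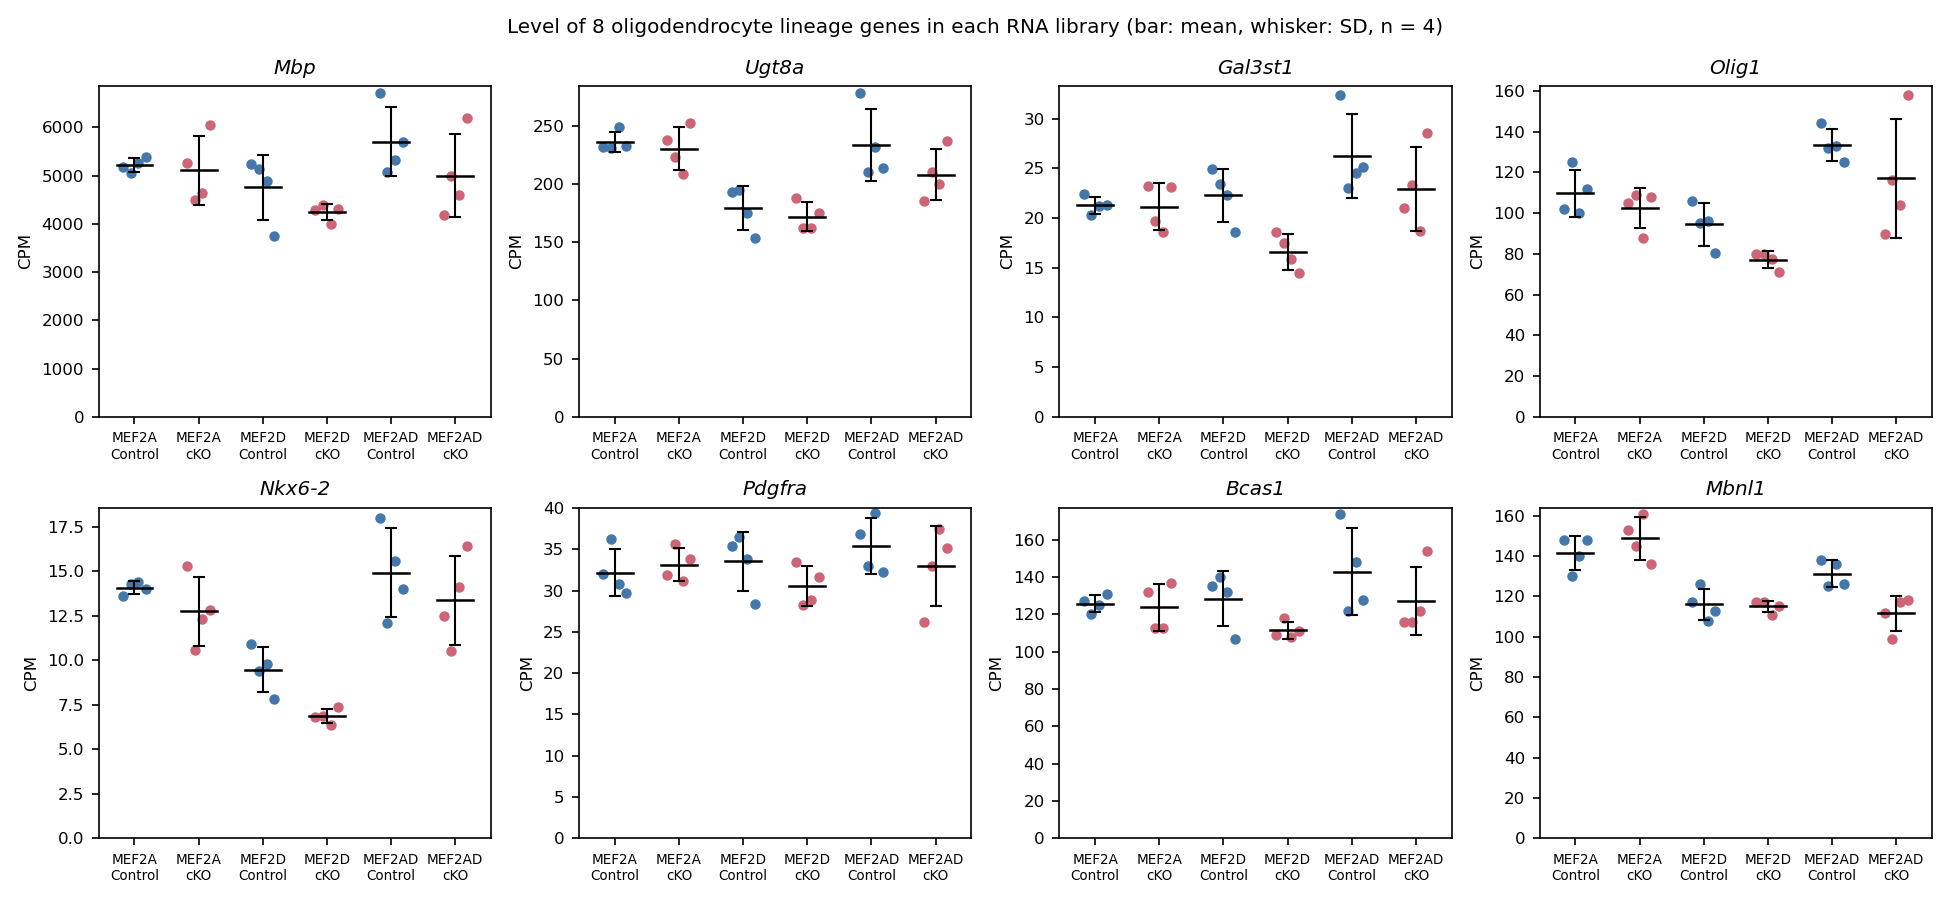
Level in CPM (vertical axes, from 0) of 8 of the genes in each of the 24 RNA libraries, by group on the horizontal axes; points are libraries, bars means and whiskers SD (n = 4). Gal3st1 was lower in MEF2D cKO (14.5 to 18.6 CPM) than in most of its Control, Mbnl1 was lower in every MEF2AD cKO library (99.1 to 118) than in every MEF2AD Control library (125 to 138), and MEF2AD Control 1 lay highest for Mbp, Ugt8a, Gal3st1, Nkx6-2 and Bcas1.

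In the libraries labelled MEF2A cKO no member of the set was called changed. None of the 30 genes passed the test (limma-trend on log2(CPM + 1) over all 15469 genes, Benjamini-Hochberg adjusted p under 0.05), where 0.129% of all genes were called lower and 0.155% higher. At an unadjusted p under 0.05 the count was also 0, and edgeR and DESeq2 each called 0, with no adjusted p from DESeq2 for 2 members. The median log2 fold over the 30 genes was -0.06, and 26 were lower, while the median over all genes was 0 and 50.2% of them were lower. Without MEF2A cKO 3 the median was -0.02 and 17 were lower, and without MEF2A cKO 2 it was -0.03 and 18 were lower. The 30 genes vary together across libraries, so counts of genes lower are not separate observations, here and in the other lines. Markers of other cells had medians of -0.08 (Purkinje cells, 6 of 6 lower), -0.04 (granule neurons, 8 of 10) and -0.02 (astrocytes, 8 of 10). Medians were -0.01 for microglia and Schwann cells, -0.03 for endothelial cells and -0.12 for red blood cells. Those of brainstem neurons (0.02) and choroid plexus (0.86) were above 0. No member had all cKO libraries below all Control libraries, a pattern that 1.76% of all genes showed. Mbp was at 5182, 5055, 5257 and 5388 CPM in Control 1 to 4 and at 5254, 4488, 4641 and 6050 in cKO 1 to 4. The cKO libraries lay on both sides of the Controls, and the log2 fold of Mbp was -0.04 with a 95% interval from -0.28 to 0.19. Ugt8a was at 232, 231, 249 and 233 CPM in Control and at 238, 223, 209 and 252 in cKO, and Olig1 at 102, 125, 99.9 and 112 in Control and at 105, 109, 87.8 and 108 in cKO. Nkx6-2 was at 13.6, 14.3, 14.4 and 14 CPM in Control and at 15.3, 10.6, 12.3 and 12.8 in cKO. In all 3 genes the groups overlapped. Gal3st1 was at 22.4, 20.3, 21.2 and 21.3 CPM in Control and at 23.2, 19.7, 18.6 and 23.1 in cKO. Pdgfra was at 32, 36.2, 30.8 and 29.7 CPM in Control and at 31.9, 35.7, 31.2 and 33.8 in cKO, and Bcas1 at 127, 120, 125 and 131 in Control and at 132, 113, 113 and 137 in cKO. These groups overlapped too. Opalin had the lowest fold, -0.21 (interval -0.56 to 0.13), and Mbnl1 the highest, 0.07 (interval -0.05 to 0.20). With the replicate number as a block, which the correlations of same-numbered MEF2A libraries allow, limma called 116 genes instead of 44, and 0 of the 30.

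In the libraries labelled MEF2D cKO 1 gene of the set was called changed. Gal3st1, the enzyme of sulfatide synthesis, fell by 24.3% (log2 fold -0.40 ± 0.12 SE; limma, Benjamini-Hochberg adjusted p = 0.0424). That is 1 of 30 members called lower, where 2.33% of all genes were called lower and 2.59% higher. Gal3st1 was at 24.9, 23.4, 22.3 and 18.6 CPM in Control 1 to 4 and at 18.6, 17.5, 15.9 and 14.5 in cKO 1 to 4. The groups met at 18.6 CPM, where the lowest Control library and the highest cKO library stood. The means were 22.3 ± 2.70 in Control and 16.6 ± 1.81 CPM in cKO (SD, n = 4). In bulk tissue, fewer cells of a type and less RNA per cell cannot be told apart, here and in all that follows.

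edgeR (adjusted p = 0.0499) and DESeq2 (adjusted p = 0.0197) also called Gal3st1. The call held without MEF2D Control 4 (log2 fold -0.48) and without MEF2D cKO 1 (-0.45). It was lost without any one of Control 1, Control 2, Control 3, cKO 2, cKO 3 or cKO 4 (log2 folds from -0.43 to -0.34; limma adjusted p from 0.061 to 0.17). Over the 30 genes the median log2 fold was -0.15 and 27 were lower, against a median of 0 and 48.7% lower over all genes. The median of granule neuron markers was also -0.15 (8 of 10 lower), and that of Purkinje cell markers -0.11 (5 of 6). Astrocyte (-0.1, 8 of 10), microglia (-0.11, 8 of 10), endothelial (-0.07, 6 of 8) and Schwann cell markers (-0.07, 2 of 3) had medians below 0 too. Brainstem markers were at -0.01 (2 of 4 lower), and red blood cell (0.08) and choroid plexus markers (0.35) above 0. At an unadjusted p under 0.05, 9 members were lower, where 19% of all genes passed in either direction. The members with a value above Control, none of which passed the test, were Trf (0.19), Aspa (0.13) and Tspan2 (0.03).

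Among the transcription factors all 6 had values below the Control mean in MEF2D cKO, with a median log2 fold of -0.24, and none passed. Nkx6-2 was at 10.9, 9.38, 9.77 and 7.85 CPM in Control 1 to 4 and at 6.84, 6.88, 6.37 and 7.36 in cKO 1 to 4. All 4 cKO libraries lay below all 4 Controls, and the log2 fold was -0.41 ± 0.12 (SE; limma adjusted p = 0.0519, just outside the threshold, with Gal3st1 just inside it). DESeq2 (adjusted p = 0.0359), a filter at a mean CPM of 1 (0.0496) and a pseudocount of 0.5 (0.0467) put Nkx6-2 inside the threshold, and edgeR did not (adjusted p = 0.0598). Olig1 was at 106, 95.3, 96.3 and 80.2 CPM in Control and at 79.9, 79.9, 77.4 and 71 in cKO, so the groups missed each other by less than 1 CPM (log2 fold -0.28; limma adjusted p = 0.162). Olig1 and Nkx6-2 were the 2 members with every cKO library below every Control library, a pattern that 6.53% of all genes showed. With only the 2 MEF2D groups in the fit, limma called Olig1 (adjusted p = 0.0304) and Nkx6-2 (adjusted p = 0.0317). Myrf (-0.26) and Sox8 (-0.23) were not called.

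None of the 12 genes of myelin proteins passed in MEF2D cKO, with 11 of 12 below Control and a median log2 fold of -0.15. Mbp was at 5232, 5135, 4892 and 3753 CPM in Control 1 to 4 and at 4284, 4381, 4004 and 4302 in cKO 1 to 4. Control 4 lay below every cKO library and the other 3 Controls above them all, and the log2 fold was -0.15 with an interval from -0.39 to 0.08. Ugt8a was at 193, 195, 175 and 154 CPM in Control and at 188, 162, 162 and 175 in cKO, and the groups overlapped (-0.06, interval -0.23 to 0.12). Without Control 4, limma called 5 members lower, namely Mobp, Fa2h, Gal3st1, Myrf and Nkx6-2, and the median log2 fold was -0.25.

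Precursor and newly formed cell genes in MEF2D cKO did not pass either. Pdgfra was at 35.4, 36.5, 33.8 and 28.4 CPM in Control and at 33.4, 28.2, 28.9 and 31.6 in cKO, with overlapping groups (log2 fold -0.13, interval -0.32 to 0.07). Cspg4 had a log2 fold of -0.19 (interval -0.37 to -0.02; limma adjusted p = 0.198). Bcas1 was at 135, 140, 132 and 107 CPM in Control and at 109, 118, 108 and 111 in cKO, again with Control 4 at the bottom (-0.20, interval -0.40 to 0.01).

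In the libraries labelled MEF2AD cKO all 30 genes had values below Control, and 1 passed the test. Mbnl1 fell by 14.9% (log2 fold -0.23 ± 0.06 SE; limma, Benjamini-Hochberg adjusted p = 0.0357), which makes 1 of 30 called lower, where 1.26% of all genes were called lower and 1.16% higher. Mbnl1 was at 138, 125, 136 and 126 CPM in Control 1 to 4 and at 112, 99.1, 117 and 118 in cKO 1 to 4. Every cKO library lay below every Control library, in Mbnl1 alone of the 30 genes and in 2.88% of all genes. The means were 131 ± 6.77 in Control and 112 ± 8.81 CPM in cKO (SD, n = 4).

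The authors' deposited table gives Mbnl1 a log2 fold of -0.25 (adjusted p = 0.0297) against the same Controls and -0.24 (adjusted p = 0.026) against the Controls of all lines. Mbnl1 is the only one of the 30 genes with an adjusted p under 0.05 in either comparison of the authors' deposited table, which holds 430 and 719 such genes. edgeR (adjusted p = 0.0351) and DESeq2 (adjusted p = 0.0121) also called it. The call was lost with only the 2 MEF2AD groups in the fit (limma adjusted p = 0.151). It was also lost without any one of Control 1, Control 3, cKO 1 or cKO 2 (limma adjusted p from 0.0754 to 0.191), and without Control 1 and cKO 4 together (log2 fold -0.24; limma adjusted p = 0.082).

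None of the other 29 genes passed in MEF2AD cKO, where all 10 choroid plexus markers and 3 of 4 brainstem markers (median log2 fold -0.23) also had values below Control, and the part of these in the members' folds was not tested. Over the 30 genes the median log2 fold was -0.17, with a range from -0.25 to -0.03, against 0 over all genes, of which 49.9% were lower. At an unadjusted p under 0.05, 7 members were lower, where 9.94% of all genes passed in either direction. Mbp was at 6708, 5079, 5325 and 5690 CPM in Control 1 to 4 and at 4188, 4991, 4602 and 6183 in cKO 1 to 4. Control 1 and cKO 4 were the high libraries of their groups, and cKO 4 lay above 3 of the Controls (log2 fold -0.20, interval -0.43 to 0.04). Cldn11 had the lowest fold, -0.25 (interval -0.44 to -0.06; limma adjusted p = 0.232), followed by Mobp (-0.24), then Mag, Aspa and Mbnl1 (each -0.23).

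Olig1 was at 144, 132, 133 and 125 CPM in MEF2AD Control and at 89.9, 116, 104 and 158 in cKO, where cKO 4 alone lay above the Controls. Ugt8a was at 278, 210, 232 and 214 CPM in Control and at 185, 210, 200 and 237 in cKO, and Bcas1 at 174, 122, 148 and 128 in Control and at 116, 116, 122 and 154 in cKO. In both genes the groups overlapped. Nkx6-2 was at 18, 12.1, 15.6 and 14 CPM in Control and at 12.5, 10.5, 14.1 and 16.4 in cKO, and Pdgfra at 36.9, 33, 39.4 and 32.2 in Control and at 26.2, 33, 37.4 and 35.2 in cKO, again with overlap. Gal3st1, called in MEF2D cKO, was at 32.4, 23, 24.5 and 25.1 CPM in Control and at 21, 23.3, 18.7 and 28.6 in cKO (log2 fold -0.19, interval -0.43 to 0.04). Pdgfra (-0.11, interval -0.30 to 0.09) and Cspg4 (-0.03, interval -0.20 to 0.14) of the precursor cells had intervals on both sides of 0. Without cKO 4, limma called 4 members lower, namely Mbnl1, Mag, Cldn11 and Olig1, with a median log2 fold of -0.27. Without Control 1 the median was -0.09 and 0 were called, and without both libraries it was -0.19 with 28 of 30 lower and 0 called.

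**Figure D2:**
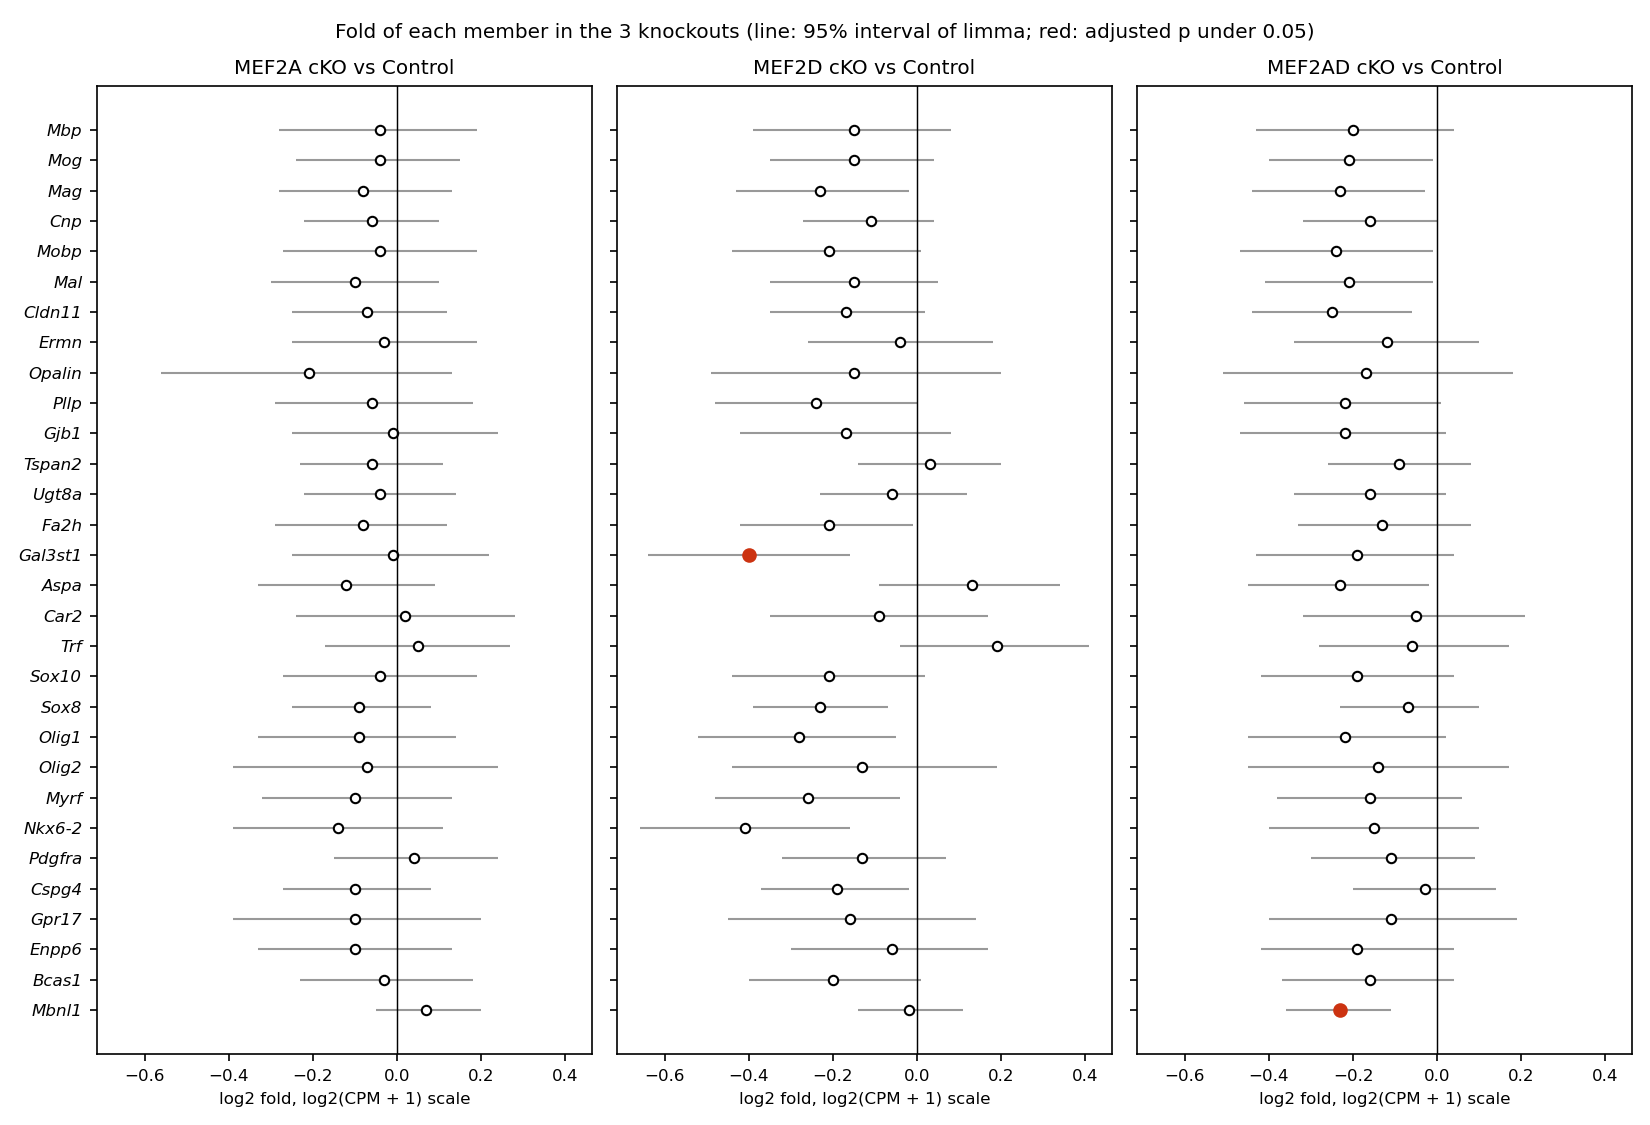
Log2 fold of cKO against Control (horizontal axes, on the log2(CPM + 1) scale) for each of the 30 genes (vertical axis) in the MEF2A, MEF2D and MEF2AD lines; lines are 95% intervals of the limma fit and filled red points have an adjusted p under 0.05. The median over the genes was -0.06, -0.15 and -0.17 in the 3 lines, and Gal3st1 in MEF2D cKO and Mbnl1 in MEF2AD cKO are the 2 called genes.

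None of the 30 genes passed the test of a difference in response between lines, although Mbnl1 did so with a replicate block. The MEF2D effect minus the MEF2A effect gave 0 of 30 (0.0388% of all genes were called), the MEF2AD effect minus the MEF2A effect 0 (0.549%), the MEF2AD effect minus the MEF2D effect 0 (0.103%), and the MEF2AD effect minus the sum of both single effects 0 (0.356%). At an unadjusted p under 0.05 these contrasts held 1, 1, 2 and 1 members, and edgeR called 0 in all 4. DESeq2 also called 0, but gave no adjusted p for 5 members in the MEF2AD effect minus the MEF2D effect and for 1 in the MEF2AD effect minus the sum. Mbnl1 came nearest, with a log2 difference of -0.31 ± 0.09 between the MEF2AD and MEF2A effects (interval -0.48 to -0.13; limma adjusted p = 0.141). With the replicate number as a block, which was taken to pair samples in the MEF2A line but not in the MEF2AD line, it was called (limma adjusted p = 0.0445). It differed by -0.22 from the MEF2D effect (interval -0.39 to -0.04) and by -0.29 from the sum of both (interval -0.51 to -0.07). For Gal3st1 the MEF2D effect lay -0.39 below the MEF2A effect (interval -0.72 to -0.05; limma adjusted p = 0.622). The differences share the libraries of the effects they are built from.

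In 2 of the 3 comparisons between Controls more members passed than in any knockout, and so did more of all genes. Of all genes 24.2% were called in MEF2D against MEF2A Control and 15.5% in MEF2AD against MEF2D Control. In MEF2A, MEF2D and MEF2AD cKO the shares were 0.284%, 4.93% and 2.42%. The comparisons between Controls share their Control libraries with the knockout comparisons. MEF2D Control was lower than MEF2A Control in 6 of 30 genes, namely Aspa, Mbnl1, Tspan2, Ugt8a, Olig2 and Nkx6-2, where 12.5% of all genes were called lower. Nkx6-2 had the largest of these folds (log2 fold -0.53 ± 0.12 SE; limma adjusted p = 0.00258), at 13.6 to 14.4 CPM in MEF2A Control against 7.85 to 10.9 in MEF2D Control. Mbnl1 was at 130 to 148 CPM in MEF2A Control and at 108 to 126 in MEF2D Control, without overlap (log2 fold -0.28 ± 0.06; limma adjusted p = 0.00142). Markers of other cells were called here too, where 11.7% of all genes were called higher. Of 10 granule neuron markers 3 were lower and 1 higher, and of 6 Purkinje cell markers 1 was lower and 2 higher. Of 8 endothelial markers 3 were higher, of 10 astrocyte markers 2, and of 10 microglia markers 1. The part of these markers in the members' differences was not tested. With each library left out in turn, limma called 4 to 6 members in either direction, with Tspan2, Ugt8a, Nkx6-2 and Mbnl1 lower in each fit. The call of Olig2 was lost in 7 of 8 such fits and that of Aspa in 4. Cspg4 or Trf was called higher in some of them. Without MEF2D Control 4 both were, and the median log2 difference over the 30 genes was 0.03, against -0.06 with all libraries.

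MEF2AD Control was higher than MEF2D Control in 8 of 30 genes, where 7.8% of all genes were called higher. These were Nkx6-2 (0.60), Olig2 (0.58), Olig1 (0.50), Ugt8a (0.38), Tspan2 (0.35), Aspa (0.31), Cldn11 (0.31) and Mag (0.29), and the median log2 difference over the 30 was 0.18. Markers of other cells also differed, where 7.69% of all genes were called lower. Of 4 brainstem markers 3 were called higher (Hoxb5, 1.36, Slc17a6, 1.04, and Slc6a5, 0.53). Called lower were 3 of 10 granule neuron markers (Cbln3, -0.45, Cbln1, -0.34, and Gabra6, -0.30) and 2 of 6 Purkinje cell markers (Pcp2, -0.59, and Car8, -0.28). So were 2 of 10 astrocyte markers (Aldoc, -0.31, and Slc1a3, -0.19) and 2 of 8 endothelial markers (Ly6c1, -0.45, and Cdh5, -0.31). The part of these markers in the members' differences was not tested. The median over the 30 genes was 0.07 without MEF2D Control 4 and 0.12 without MEF2AD Control 1. In both cases limma called 5 of the 8, Tspan2, Ugt8a, Olig1, Olig2 and Nkx6-2. The call of Mag, at an adjusted p of 0.05, was lost in all 8 fits with a library left out. MEF2AD Control against MEF2A Control gave 0 of 30 called, where 6.34% of all genes were called, with a median of 0.14, 23 of 30 higher and 5 at an unadjusted p under 0.05. Without MEF2AD Control 1 the median was 0.06 and 20 were higher. edgeR and DESeq2 also called 0 there, and limma called 2 with only those groups in the fit. The labels give no litter or preparation batch for the lines.

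The genes of the set varied together across libraries, and less closely without the 3 libraries furthest from their group means. Each value was set against its group mean, and each gene was correlated with the mean of the other 29 over the 24 libraries, which share the scaling to CPM; the r values describe these libraries and carry no test. The median r was 0.765, and 14 genes had an r of at least 0.8. The highest were Mbp (0.97), Mag (0.96), Mog (0.94), Bcas1 (0.92) and Cnp (0.91), of mature or newly formed cells. The precursor genes Cspg4 (0.55) and Pdgfra (0.46) followed the rest less closely, and Trf (0.28) and Mbnl1 (0.17) least. MEF2AD Control 1, MEF2AD cKO 4 and MEF2D Control 4 lay furthest from their group means in these genes. They were left out, a choice made after seeing the data. Leaving out such libraries lowers r by itself, so the fall does not show what the co-variation rests on. Over the other 21 libraries the median r was 0.5, and 3 genes had an r of at least 0.8, namely Mbp (0.94), Mag (0.87) and Cnp (0.80). In these 21 libraries Trf had an r of 0.54, Pdgfra of 0.18, Cspg4 of 0.06, Sox8 of -0.13 and Mbnl1 of -0.28.

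In MEF2AD Control 1 all 30 genes, and in MEF2AD cKO 4 29 genes, were above their group mean, by an average log2 difference of 0.22 and 0.25. In MEF2D Control 4 none of the 30 was above it, with an average of -0.24. MEF2A cKO 4 had 28 genes above (0.13), and MEF2AD cKO 1 had 6 above (-0.16). The summed CPM of the set, to which Mbp contributes most, was 12936 in MEF2AD Control 1 and 11762 in MEF2AD cKO 4, against 7603 to 11178 in the other 22 libraries.

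**Figure D3:**
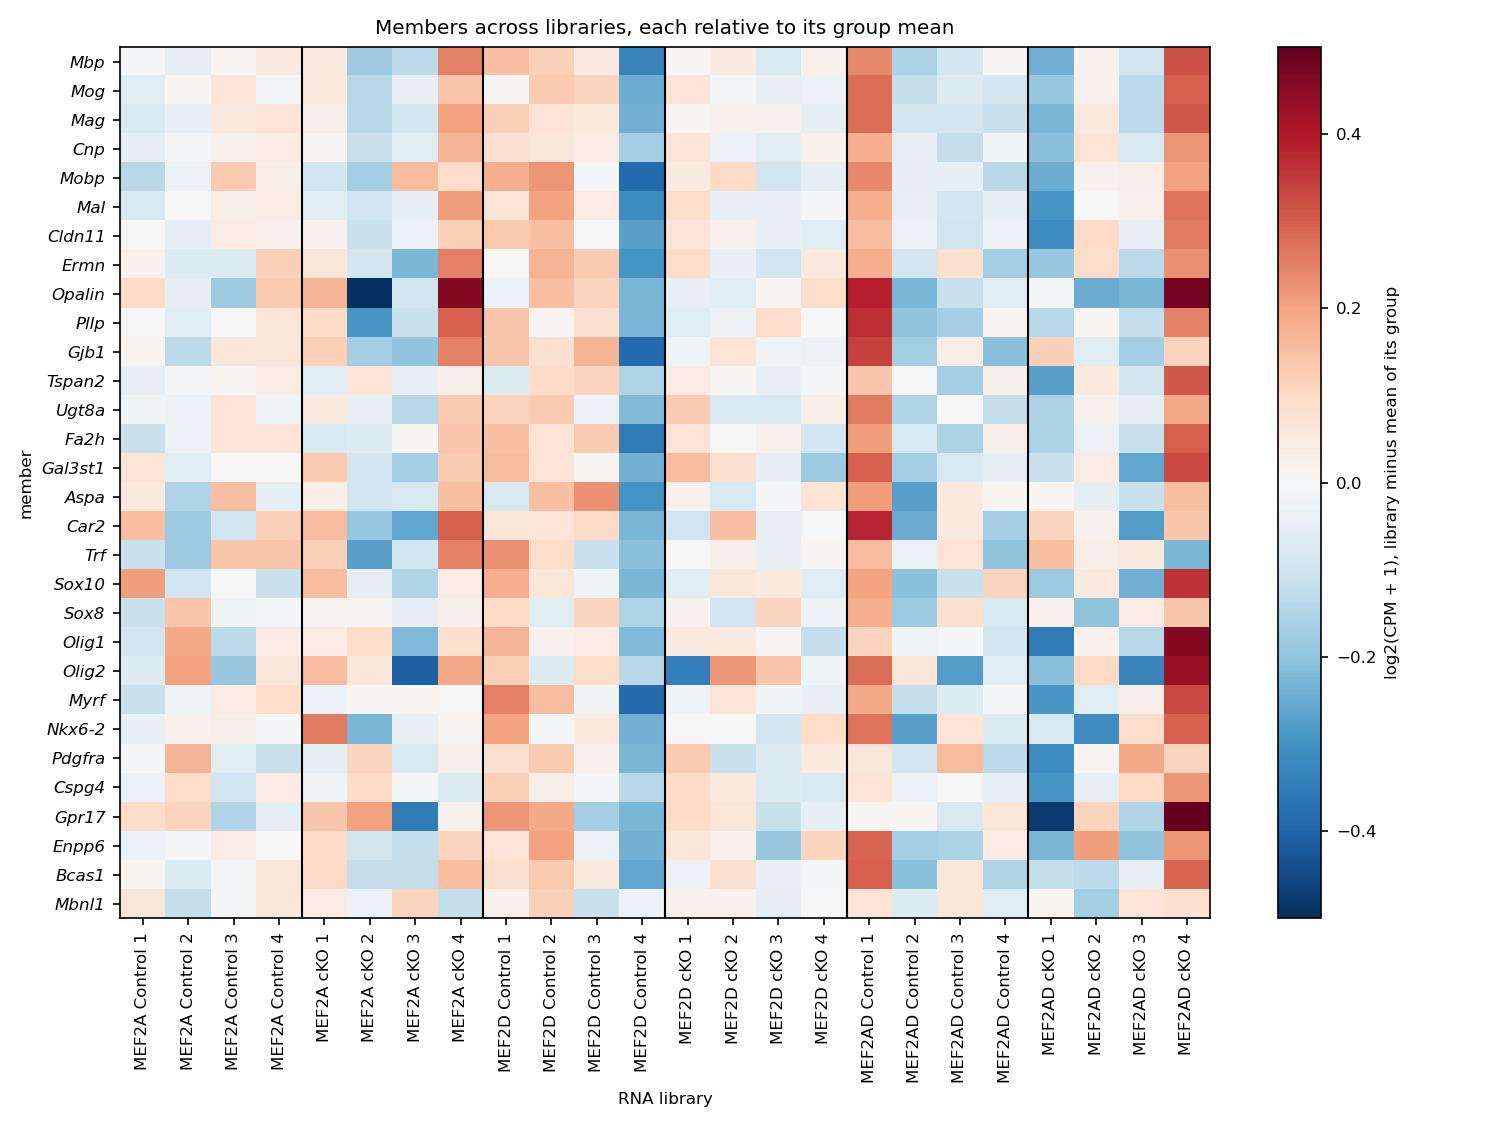
Difference of log2(CPM + 1) from the mean of its group (colour) for the 30 genes (vertical axis) in the 24 RNA libraries (horizontal axis, groups split by lines). MEF2AD Control 1 and MEF2AD cKO 4 are high for all and for 29 of the 30 genes, MEF2D Control 4 is low for all 30, and Mbnl1 varies apart from the rest.

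Outside the set and the other lists, the 10 genes most like the mean of the 30, of 14471 with a mean CPM of at least 1, were Padi2 (r = 0.90), Nefm (0.89), Cers2 (0.89), Nefl (0.89), Gsn (0.88), Efnb3 (0.86), Nefh (0.86), Tenm4 (0.86), Meis2 (0.85) and Tmeff1 (0.85). Padi2, which citrullinates proteins including myelin basic protein, was at 50.5 CPM in MEF2AD Control 1 and 43.9 in MEF2AD cKO 4, against 29.4 in MEF2D Control 4. Nefl, Nefm and Nefh encode the neurofilament subunits of large axons. Nefm was at 418 CPM in MEF2AD Control 1 and 373 in MEF2AD cKO 4, against 180 to 306 in the other 22 libraries. Nefl was at 239 and 224 CPM there, against 127 to 189. MEF2A cKO 4, the library with the third highest sum of the 30 genes (11178 CPM), had a brainstem sum of 61.1, a granule sum of 7838 and Nefm at 238 CPM, within the range of the other libraries. Its choroid plexus sum (1630 CPM) and microglia sum (128 CPM) were the highest of the MEF2A line. The part of any of these markers in its level was not tested. These genes were picked for their r with the members, so their levels are a description. Without the 3 libraries that stand apart, 2 of the 10 (Gsn, r = 0.86, and Padi2, 0.77) were still among the 10 most like genes, and Nefm had an r of 0.56, Nefl of 0.63 and Nefh of 0.58.

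The marker sums of the MEF2AD groups overlapped. The brainstem sum was 75.6 to 169 CPM in MEF2AD Control and 60.2 to 159 in MEF2AD cKO, against 51.7 to 72.0 in the 4 groups of the other lines. Hoxb5, a gene of the hindbrain and spinal cord, reached 8.62 CPM in MEF2AD Control and 3.54 in MEF2AD cKO, and did not pass 0.104 in any library of the other lines. Chat, of cholinergic neurons, reached 1.74 and 1.58 CPM in the MEF2AD groups and was at 0 in all libraries of MEF2A Control, MEF2A cKO and MEF2D cKO. The larger parts of the sum differed between the MEF2AD groups. Slc6a5 reached 112 CPM in MEF2AD Control and 64.3 in MEF2AD cKO, and Slc17a6 reached 46.5 and 91.8. Granule neuron markers summed to 6013 to 7339 CPM in MEF2AD Control and 5965 to 7565 in MEF2AD cKO. Microglia markers were at 115 to 143 and 109 to 142 CPM in these groups. The median log2 fold of the granule markers was -0.01 and that of the microglia markers -0.08 in MEF2AD cKO. Medians there were -0.04 for Purkinje cell, 0 for astrocyte and 0.04 for endothelial markers. Of the granule markers, Gabra6 was called higher in MEF2A (0.74), MEF2D (0.88) and MEF2AD cKO (0.37), and Slc17a7 lower in MEF2D cKO (-0.28). The granule sum includes Gabra6, so it is not free of differences between genotypes. Of the Schwann cell markers, whose cells make the myelin of nerves outside the brain, 3 of 7 were measured, and their sum stayed between 35.6 and 46.5 CPM in all libraries.

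**Figure D4:**
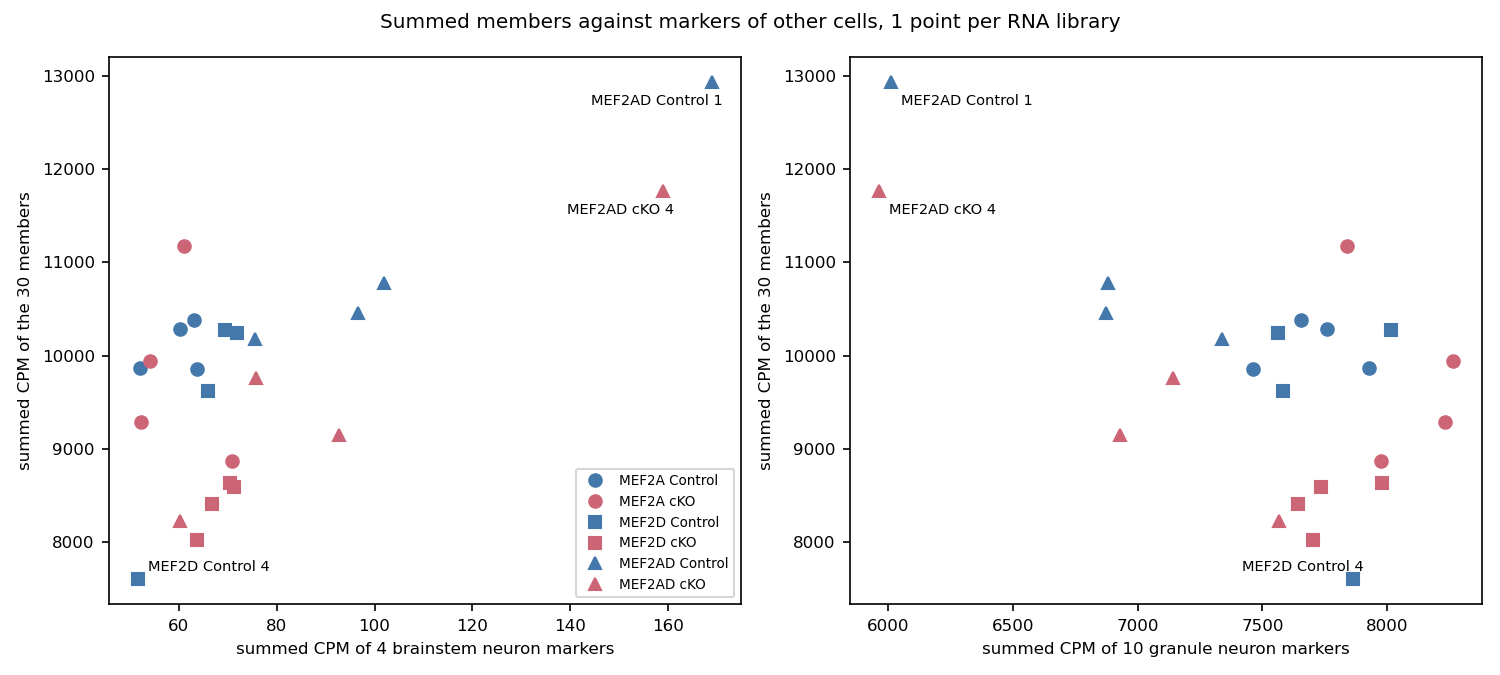
Summed CPM of the 30 genes (vertical axes, not starting at 0) against the summed CPM of 4 brainstem neuron markers (left) and of 10 granule neuron markers (right), 1 point per RNA library, with colour for genotype and shape for line. MEF2AD Control 1 (12936) and MEF2AD cKO 4 (11762) lie at the high brainstem and low granule end. The brainstem sum is mainly Slc6a5, highest in MEF2AD Control (112 CPM), and Slc17a6, highest in MEF2AD cKO (91.8 CPM). MEF2D Control 4 (7603) is lowest in the 30 genes and, close to other libraries, in the brainstem sum (51.7). The granule sum includes Gabra6, which was called higher in MEF2A, MEF2D and MEF2AD cKO.

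Other genes of the lineage and of its surroundings were counted from lists that hold none of the 30 members. The shares of all genes called lower and higher were 0.129% and 0.155% in MEF2A, 2.33% and 2.59% in MEF2D, and 1.26% and 1.16% in MEF2AD cKO. Of 28 other genes of myelinating oligodendrocytes 0 passed in any of the 3 knockouts, and the median log2 fold was -0.03 in MEF2A, -0.12 in MEF2D and -0.17 in MEF2AD cKO, with 21, 22 and 27 of them lower. Of 19 other precursor and newly formed cell genes 1 was called lower in MEF2A cKO and in MEF2D cKO, and 0 in MEF2AD cKO. In both it was Kcnip3, a calcium sensor that neurons also express (log2 fold -0.29, limma adjusted p = 0.0101, and -0.31, limma adjusted p = 0.000801). Of 20 genes of cholesterol synthesis, which supplies the main lipid of myelin, Fdft1 rose in MEF2D cKO (0.35; limma adjusted p = 0.0471). There 19 of the 20 had values above Control with a median of 0.13, opposite in sign to the median of the myelin genes, and 0 of the 20 passed in the other lines.

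Of 19 signals and receptors that act on the lineage, 3 fell in MEF2D cKO and 0 passed in the other lines. They were Nrg2, a neuregulin (-0.36; limma adjusted p = 0.00365), Nrg1, another neuregulin, which axons present to myelinating cells (-0.37; limma adjusted p = 0.0468), and Notch1, a receptor of precursor cells and many others (-0.24; limma adjusted p = 0.0324). Of 15 genes of the axonal node and paranode, Kcnq3, a potassium channel subunit, rose in MEF2D cKO (0.40; limma adjusted p = 0.0229). Cntnap1, which encodes the axonal partner of the paranodal loops, rose in MEF2AD cKO (0.23; limma adjusted p = 0.0193), at 472 ± 39.2 against 402 ± 11.4 CPM (SD, n = 4). The other genes of both lists did not pass in any of the 3 lines.

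The authors deposited 203 MEF2A peaks and 1388 MEF2D peaks, without a value per library. Of the 30 genes, 0 had a MEF2A peak within 5000 bp, as 0.829% of all 14841 genes with a position did, and 1, Mbnl1, had a MEF2D peak, as 5.54% of all genes did. Within 50000 bp it was still Mbnl1 alone, where 12.3% of all genes had a MEF2D peak. The median distance from a member to the nearest MEF2D peak was 523 kb, against 450 kb for all genes. Ermn (85.7 kb) and Mag (85.9 kb) came next after Mbnl1. The deposited H3K27ac counts cover MEF2 sites only, so acetylation at the other 29 genes was not analysed here.

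The Mbnl1 site spans chromosome 3, 60576327 to 60577071 in mm10, 745 bp inside the gene, which RefSeq places at 60472559 to 60629750. It lies 75.1 and 103.5 kb downstream of the 2 annotated start sites whose windows were searched, the nearer of which is shown above. It overlaps 1 MEF2D peak and 0 MEF2A peaks, and Mbnl1 is the only gene within 5000 bp. At this site H3K27ac was at 17.7, 14.9 and 17.9 CPM of the library total in MEF2D Control 1 to 3 and 8.47, 10.1 and 8.11 in MEF2D cKO 1 to 3. The groups did not overlap. In the MEF2AD line it was 14.8, 14.3 and 15.1 in Control and 5.37, 5.25 and 2.12 in cKO, again without overlap. The last value rests on 26 reads, and the 2 input libraries stood at 0.733 and 0.51 CPM. MEF2A Control was at 16.5, 18.4 and 18.6 and MEF2A cKO at 15.4, 15.6 and 18.2, which overlap.

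By edgeR's quasi-likelihood test over 1372 sites, scaled by TMM so that the median site did not change, the log2 fold at the Mbnl1 site was -0.56 in MEF2D cKO (Benjamini-Hochberg adjusted p = 0.000254) and -1.13 in MEF2AD cKO (adjusted p = 7.45e-11). In MEF2A cKO it was -0.05 (edgeR adjusted p = 0.947). For comparison, 0%, 20% and 32.2% of all sites were called lower in MEF2A, MEF2D and MEF2AD cKO. Ordered from the lowest fold, this site stood at place 257 of 1372 in MEF2D cKO and at place 193 in MEF2AD cKO. With library totals in place of TMM the median of all sites moved to -0.36 in MEF2D and -0.51 in MEF2AD cKO, the Mbnl1 site to -0.92 and -1.63, and 565 of 573 and 753 of 781 called sites were lower, against 274 of 475 and 442 of 866 with TMM. The MEF2AD effect minus the MEF2D effect at the site was -0.56 (edgeR adjusted p = 0.0683), a test chosen after the values were seen, where 2.84% of sites were called lower.

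The RNA of Mbnl1 can be set beside the acetylation of its site, line by line. H3K27ac fell in MEF2D cKO and in MEF2AD cKO, whereas the RNA fell in MEF2AD cKO and had a log2 fold of -0.02 in MEF2D cKO, with an interval from -0.14 to 0.11. The RNA difference between these effects did not pass (-0.22; limma adjusted p = 0.55). In MEF2D cKO the RNA was at 117, 117, 111 and 115 CPM against 117, 126, 108 and 113 in Control. In MEF2A cKO it was at 153, 145, 161 and 136 CPM against 148, 130, 140 and 148, also with overlap. The labels do not say whether RNA and chromatin came from the same animals, and many cell types of the cerebellum express Mbnl1, so neither value can be assigned to oligodendrocytes.

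**Figure D5:**
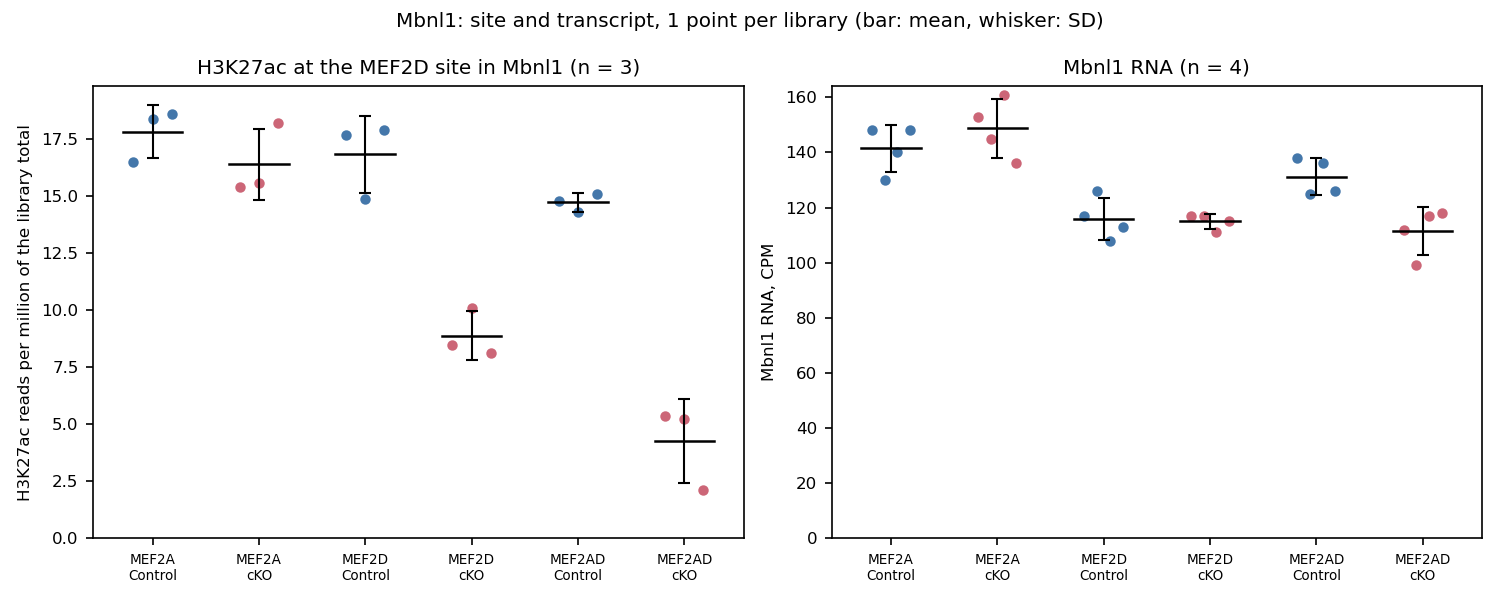
H3K27ac at the MEF2D site inside Mbnl1 in CPM of the library total (left, 3 libraries a group) and Mbnl1 RNA in CPM (right, 4 libraries a group); points are libraries, bars means and whiskers SD, and both vertical axes start at 0. H3K27ac is lower in MEF2D cKO (8.11 to 10.1) and MEF2AD cKO (2.12 to 5.37) than in their Controls, while RNA is separated from Control only in the MEF2AD line.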

How the data were processed

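RNA was measured in 24 cerebellum libraries and H3K27ac in 18, grouped by the genotype in the sample titles, with 2 H3K27ac inputs and 2 lists of MEF2 peaks that hold positions. STAR 2.6, Bowtie2 2.3.4.2, MACS2 and mm10 are named, per the submitters' processing notes, with no role for each. No source used here gives the counting tool, its strand setting or filters, so reads of overlapping antisense genes may be included. RNA values were deposited by the authors as log2 CPM with 0.5 reads added. From them every value gave a whole read count (100%, within 0.05 reads). The table had 15560 entries, of which 91 with a repeated identifier were dropped. Fold changes (log2) and adjusted p-values of the authors' deposited table for MEF2AD cKO are used where named. For H3K27ac, raw read counts per site and library totals were deposited by the authors. Columns that repeat or derive from these values, 102 in number, were not used.

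The main RNA test was limma 3.58.1 in R 4.3.3, with a mean for each of the 6 groups, log2(CPM + 1) as the measure, the trend option and no filter, adjusted by Benjamini-Hochberg over 15469 genes. Folds are on that scale, SE and 95% intervals come from the fit, and SD is over libraries. For H3K27ac, edgeR 4.0.16 (quasi-likelihood, TMM, low-count filter) kept 1372 of 1419 sites. Alternatives for RNA were edgeR and DESeq2 1.42.0 on the recovered reads, TMM scaling, pseudocounts of 0.5 and 2, a mean CPM of at least 1, only the groups compared, a replicate block, and each library left out. The scripts were tested on simulated data. Gene positions and promoters are from RefSeq GRCm38.p6. Tables and plots used Python 3.11.15, pandas 2.3.3, numpy 2.4.6 and matplotlib 3.10.9.

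Same-numbered cKO and Control libraries deviated together in the MEF2A line (r of 0.404, 0.503, 0.24 and 0.197 over genes for the 4 pairs), so the numbers were taken to pair samples there. The r values were 0.065, 0.315, 0.202 and 0.233 in the MEF2D line and -0.198, 0.253, 0.126 and 0.227 in the MEF2AD line. For the weakest pair of each, the numbers were not taken as pairs there, although the other pairs were like some of the MEF2A line. The main fit used no block in any line. No label says which libraries came from separate animals, so p-values measure the spread between libraries, which may be in part technical.

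The members, the lists and the tests were chosen with earlier results of these data known. Values in every library are given for members called in a knockout or in a difference of effects, for the member with the highest mean CPM of each role, and for Olig1 and Nkx6-2, whose groups did not overlap in a knockout. Of the other lists up to 4 called members are named per comparison. Other members named with a fold were chosen after their values were seen.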

Additional observations from a re-analysis of the deposited data

Results flagged for a closer look

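Of 186 groups of 4 libraries tested for a library far from the other 3, 7 had one, where chance alone gives about 1 in 20 groups. Of these, 3 were in MEF2AD Control 1, which was highest for Mog (183 CPM, the others at most 143), Mag (475 CPM, the others at most 367) and Mal (403 CPM, the others at most 345). Mal was also far above the rest in MEF2A cKO 4 (358 CPM, the others at most 298). Car2, the carbonic anhydrase, was far below the rest in MEF2D Control 4 (115 CPM, the others at least 141). Ugt8a in MEF2A Control 3 (249 CPM, the others at most 233) and Gjb1 in MEF2D cKO 2 (30.7 CPM, the others at most 28.7) were the remaining ones, in groups whose other libraries lay close together.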

How the results depend on the processing

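The median log2 fold of the 30 genes stayed negative in the 3 knockouts with each library left out, from -0.10 to -0.02 in MEF2A, -0.25 to -0.11 in MEF2D and -0.27 to -0.09 in MEF2AD cKO. The count of members called moved more, and the cause was not tested. In MEF2D cKO it was 1, and became 2 with a pseudocount of 0.5, with a mean CPM of at least 1 and with DESeq2, 3 with only the groups compared (adding Olig1 and Nkx6-2) and 3 with the replicate block (adding Sox8 and Nkx6-2). Leaving out each library gave 0 to 5. In MEF2AD cKO it was 1, and became 0 with only the groups compared and 0 without MEF2AD Control 1 and cKO 4 together, an alternative chosen after seeing the data. Leaving out each library gave 0 to 4. The MEF2AD effect minus the MEF2A effect called 0 members, and 1 with the replicate block (Mbnl1, limma adjusted p = 0.0445). MEF2AD Control against MEF2A Control called 0, and 2 with only the groups compared, Olig1 and Gpr17. MEF2AD Control against MEF2D Control called 8, and 5 to 8 with each library left out. The replicate block raised the genes called from 762 to 1385 in MEF2D and from 374 to 632 in MEF2AD cKO, whose numbers were not taken as pairs. With only the groups compared 17 instead of 44 genes were called in MEF2A cKO and 209 instead of 374 in MEF2AD cKO. Leaving out 1 library gave 23 to 52 genes in MEF2A cKO, 308 (without MEF2D Control 1) to 796 in MEF2D cKO, and 522 to 998 instead of 980 between MEF2AD and MEF2A Control. Among the differences of effects (MEF2D minus MEF2A, MEF2AD minus MEF2A, MEF2AD minus MEF2D, and MEF2AD minus the sum of both) the genes called were 6, 85, 16 and 55, and 25, 195, 71 and 180 with the block, 12, 54, 19 and 55 with only the groups compared, and 16, 133, 60 and 151 with DESeq2. The block changed no other call of a member in the 3 knockouts or the differences of effects. No value changed direction past the threshold in any alternative run. H3K27ac at the Mbnl1 site kept its calls in MEF2D and MEF2AD cKO in all alternatives run. The lowest count of a member in any library was 74 reads, and the 95% interval of a log2 fold in MEF2AD cKO reached from -0.43 to 0.04 for Mbp and from -0.36 to -0.11 for Mbnl1.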
